A study of Homo sapiens with 16 samples.

Results

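Open chromatin of sorted progenitors was compared with that of sorted neurons in organoids grown for 90 days, in 4 of the 16 libraries of the study, 2 for each population. All groups came from 1 engineered line made from H9 (human embryonic stem cells, a long-established line). In this line 1 allele of SOX2 carries P2A-EGFP in place of its stop codon, and dTomato under the human Synapsin1 (hSYN1) promoter sits in the AAVS1 locus inside PPP1R12C. Organoids were of telencephalic type and enriched for dorsal tissue. Progenitors were the EGFP+ cells and neurons the dTomato+ cells, so the reporters, and not the chromatin, chose the cells. The other 12 libraries, 2 of each population at days 40, 60 and 120, served to ask whether the day 90 pattern recurs. The labels leave unsaid whether replicate libraries stem from separate cultures, and p-values therefore reflect a spread among libraries that can be purely technical.

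Radial glia are the stem cells of the developing cortex. They keep a SOX2-driven progenitor program, divide along the ventricle or, as outer radial glia, further out, and are maintained by Notch and FGF signals. Their neuronal daughters close many of the progenitor enhancers and open those of synaptic and channel genes, while most promoters are open in both. ATAC-seq reads this out because the Tn5 transposase inserts into accessible DNA, and a peak marks a stretch where insertions pile up.

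Progenitor replicates 1 and 2 had 124067 and 119213 broad peaks on chromosomes 1 to 22 and X, which covered 103 and 98.8 Mb. Neuron replicates 1 and 2 had 110879 and 110390 peaks covering 80.0 and 80.3 Mb. Progenitors thus had the longer lists at day 90, and every count below is read beside that difference. The files hold no read numbers, so the sequencing depth is unknown. The share of covered bases that 2 lists have in common (Jaccard index, shared bases over the union) was 0.672 for the progenitor pair and 0.539 for the neuron pair. Between populations it was 0.430 and 0.435 for neuron replicate 1 against the progenitors, and 0.355 and 0.368 for neuron replicate 2. All 4 values between populations lay below both values within a population, and neuron replicate 1 was the nearer of the neuron libraries to the progenitors. With 2 libraries against 2, an exact permutation test cannot give a two-sided p below 0.333, so comparisons at day 90 alone are given as values. In these sorted bulk samples, fewer cells open at a site and less accessibility per cell cannot be told apart.

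Promoters were read in 22012 windows of 300 bases (250 before and 50 after a RefSeq transcript start, GRCh38.p14, the same coordinates as hg38) belonging to 15712 genes. A window counted as open in a library when a peak overlapped it by at least 1 base. Most open promoters were shared: 13173 windows had a peak in all 4 libraries. Both progenitor libraries and no neuron library had a peak at 513 windows, 2.33% of those examined, called progenitor-only here. The reverse, neuron-only, held for 125 windows, 0.568%. Without neuron replicate 1 the counts were 1283 and 230. Of the 267 genes of the lists described below, 196 had a window, 12 had a progenitor-only one and 5 had a neuron-only one. Over all 15712 genes with a window, 476 had a progenitor-only and 115 a neuron-only one.

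The progenitor-only windows of list genes belonged to FGFR3, the FGF receptor of radial glia, the outer radial glia genes FAM107A and ACSBG1 (an acyl-CoA synthetase), GJA1 (the gap junction protein connexin 43), NFIA and NFIX (nuclear factors of gliogenesis, NFIA also being on the deep-layer neuron list), NOTCH3, SOX3, TEAD2 (the DNA-binding partner of YAP), ETV1 (an ETS factor downstream of FGF), BMP4 and FOXP2 (a deep-layer neuron gene). FAM107A and ACSBG1 repeated the pattern in full at the other days, with a peak in 6 of 6 progenitor and 0 of 6 neuron libraries. FGFR3, GJA1, NFIA, TEAD2 and ETV1 had a peak in 4 of 6 progenitor and 0 of 6 neuron libraries, and SOX3 in 5 and 2. At day 90 the FGFR3 window held 55 and 300 covered bases in the progenitors. The FOXP2 and NFIX windows did not separate the populations elsewhere, with 5 of 6 in each for FOXP2 and 2 of 6 in each for NFIX, and the NOTCH3 window had no peak outside day 90. The BMP4 window was touched by 45 bases of a peak in each progenitor library, and the other-day libraries had 1 of 6 in each population.

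The neuron-only windows of list genes belonged to PAX6, MYT1L, SCN1A, JAG2 and CX3CR1. MYT1L is a neuronal zinc finger factor and SCN1A a sodium channel subunit, and their windows had a peak in 0 of 6 progenitor and 5 of 6 neuron libraries of the other days. PAX6, a radial glia factor that is better known from progenitors, had 9 windows. The most upstream one was open in all 4 libraries, while 1 internal window was neuron-only with 268 and 188 covered bases in neurons and 0 in both progenitors. That internal window had a peak in 0 of 6 progenitor and 6 of 6 neuron libraries of the other days. A second PAX6 window, with 300 covered bases in each progenitor library, had 251 in neuron replicate 1 and 0 in neuron replicate 2. The JAG2 window had 5 and 300 covered bases in the neurons and, at the other days, a peak in 1 of 6 libraries of each population. CX3CR1, a microglial receptor, had no peak at the other days. Across all genes, 156 of the 476 genes with a progenitor-only window and 49 of the 115 with a neuron-only window had another window open in all 4 libraries, so these counts concern single start sites and not whole genes. Among the list genes named above, NFIA, FAM107A, TEAD2, ETV1, FOXP2, NFIX, MYT1L and SCN1A each had such an open window too, like PAX6.

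The 250 bases upstream of 6 such starts are printed as examples, 3 from progenitor-only and 3 from neuron-only windows. Capitals mark exact matches to an E-box (CAGATG or CAGCTG), a SOX motif (ACAATG or ACAAAG) or the AP-1 motif (TGACTCA), on either strand. DLGAP1, which encodes a postsynaptic scaffold protein, is on none of the lists and was chosen after its values were seen. The window shown was neuron-only at day 90 and had a peak in 0 of 6 progenitor and 6 of 6 neuron libraries of the other days. A second neuron-only DLGAP1 window, not shown, had a peak in 1 of 6 and 2 of 6.
ACSBG1, progenitor-only, chr15:78234566-78234815, minus strand: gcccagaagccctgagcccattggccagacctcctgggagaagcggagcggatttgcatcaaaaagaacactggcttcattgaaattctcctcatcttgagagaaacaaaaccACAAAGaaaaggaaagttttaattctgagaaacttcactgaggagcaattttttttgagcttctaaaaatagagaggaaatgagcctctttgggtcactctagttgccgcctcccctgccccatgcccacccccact
FGFR3, progenitor-only, chr4:1793043-1793292, plus strand: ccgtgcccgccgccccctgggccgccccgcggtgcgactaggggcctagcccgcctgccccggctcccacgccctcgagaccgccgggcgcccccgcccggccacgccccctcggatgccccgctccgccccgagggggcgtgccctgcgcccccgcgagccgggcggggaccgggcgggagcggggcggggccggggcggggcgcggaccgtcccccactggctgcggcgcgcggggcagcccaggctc
GJA1, progenitor-only, chr6:121435396-121435645, plus strand: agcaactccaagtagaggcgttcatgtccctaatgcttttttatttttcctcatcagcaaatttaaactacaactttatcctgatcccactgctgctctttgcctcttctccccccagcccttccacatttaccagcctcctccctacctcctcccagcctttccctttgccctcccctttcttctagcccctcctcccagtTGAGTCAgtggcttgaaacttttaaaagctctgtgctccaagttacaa
PAX6, neuron-only, chr11:31809960-31810209, minus strand: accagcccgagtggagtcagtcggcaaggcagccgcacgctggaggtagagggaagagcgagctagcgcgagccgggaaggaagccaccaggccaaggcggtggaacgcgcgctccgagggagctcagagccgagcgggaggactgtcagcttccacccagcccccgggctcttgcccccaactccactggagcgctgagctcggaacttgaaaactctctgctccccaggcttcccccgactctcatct
SCN1A, neuron-only, chr2:166149162-166149411, minus strand: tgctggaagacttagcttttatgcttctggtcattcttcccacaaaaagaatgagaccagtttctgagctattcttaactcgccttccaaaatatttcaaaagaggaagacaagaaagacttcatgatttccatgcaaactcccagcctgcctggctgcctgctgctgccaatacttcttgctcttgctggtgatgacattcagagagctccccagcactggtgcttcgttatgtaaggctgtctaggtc
DLGAP1, neuron-only, chr18:3874761-3875010, minus strand: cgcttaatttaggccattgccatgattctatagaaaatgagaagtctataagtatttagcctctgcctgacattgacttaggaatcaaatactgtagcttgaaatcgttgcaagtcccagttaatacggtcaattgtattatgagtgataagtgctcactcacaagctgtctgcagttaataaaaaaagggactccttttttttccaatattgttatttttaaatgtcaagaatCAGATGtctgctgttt

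The printed sequences differ widely in base composition. GC content was 86.8% at FGFR3 and 66.4% at PAX6, but 47.2% at ACSBG1, 48.0% at GJA1, 45.6% at SCN1A and 34.8% at DLGAP1. The ACSBG1 sequence holds 1 SOX match, GJA1 holds 1 AP-1 match (as TGAGTCA) and DLGAP1 holds 1 E-box close to its start, while the other 3 sequences hold none of these letters. Over all windows of 300 bases, median GC was 61.3% in progenitor-only, 55.0% in neuron-only and 65.7% in shared windows. The E-box CAGATG, the form bound by proneural factors, or its reverse complement stood in 36 of 125 neuron-only windows (28.8%), in 15.8% of progenitor-only windows and in 12.2% of all windows. Windows without a peak in any of the 4 libraries (peak-free), whose median GC was 51.7%, held it in 18.0%. The other E-box, CAGCTG, went the opposite way, with 18.4% of neuron-only, 23.2% of progenitor-only, 18.02% of all and 20.1% of peak-free windows. AP-1 letters stood in 9.55% of progenitor-only, 7.20% of neuron-only, 4.02% of all and 6.49% of peak-free windows. The 2 SOX motifs also went opposite ways: ACAATG stood in 11.1% of progenitor-only, 15.2% of neuron-only, 8.17% of all and 13.1% of peak-free windows, and ACAAAG in 13.8% of progenitor-only windows, 15 of 125 neuron-only windows, 13.6% of all and 19.2% of peak-free windows. Of the 8 other motifs searched, TATA letters differed most between the classes, with 8.97% of progenitor-only and 16.8% of neuron-only windows, against 18.3% of peak-free ones. These shares are descriptions of letters in windows that differ in GC and, for genes with several starts, can overlap.

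Away from promoters, the populations differed at many more places. Merging the 4 lists gave 190273 regions. A peak in all 4 libraries was found in 58417 of them. Progenitor-only regions numbered 28185 (14.8% of all regions) and neuron-only regions 17387 (9.14%). In list length, the progenitors covered on average 101 Mb and the neurons 80.2 Mb. When each list was cut to the 110390 peaks with the highest −log10 q, the counts were 23892 and 19060. Replicates of 1 population disagreed often: 33519 regions had a peak in 1 neuron library alone and 25950 in 1 progenitor library alone. Of the regions with a peak in both progenitors and 1 neuron library, 11473 had it in neuron replicate 1 and 4015 in neuron replicate 2.

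**Figure D1:**
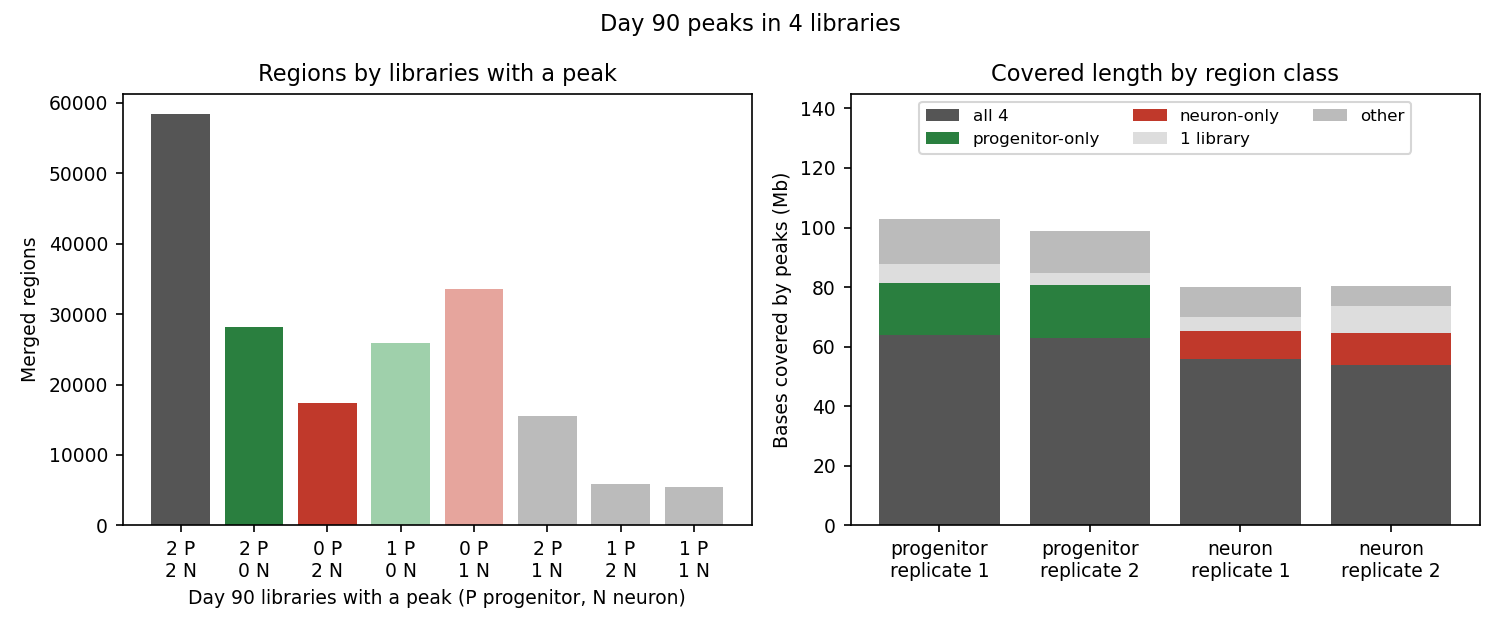
Left, number of merged day 90 regions by how many of the 2 progenitor (P) and 2 neuron (N) libraries had a peak. Right, bases covered by peaks (Mb) in each library, split by region class, where 1 library means a peak in a single library and other means the remaining mixed patterns. Shared regions hold 53.8 to 64.0 Mb of every library, and progenitor-only regions hold 17.5 and 17.6 Mb of the progenitor lists against 9.13 and 10.6 Mb for neuron-only regions in the neuron lists.

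Regions found in 1 population were narrower, weaker and further from genes than shared ones. Their median width was 656 bases for progenitor-only and 642 for neuron-only regions, against 1179 for regions in all 4 libraries. Shared regions join peaks of 4 lists and population-only regions those of 2, so these widths are not built alike. Only 2.81% and 2.21% of them lay within 1 kb of the start or end of a protein-coding gene, against 22.3% of shared regions. From the nearest gene end, the median region lay 57.5 kb away for progenitor-only, 65.0 kb for neuron-only and 23.7 kb for shared regions. Peaks were ranked by the authors' fold enrichment within their own list, and the best peak of each library in a region was taken. The median percentile was 41.5 in progenitor-only, 51.1 in neuron-only and 65.1 in shared regions, where a wider region can hold more peaks. Inside genes lay 49.3% of progenitor-only and 50.2% of neuron-only regions, and more of the shared ones, 57.2%.

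Of the 6 strongest regions of each class, by the lower of the 2 within-list ranks, 5 progenitor-only and 2 neuron-only ones lay outside genes. Among progenitor-only regions, chr18:43714313-43714808 lay 437 kb from the nearest gene end, that of SYT4, and covered 495 and 496 bases in the progenitors. It had a peak in 6 of 6 progenitor and 0 of 6 neuron libraries of the other days. A region inside DIS3L2, an RNA exonuclease gene, at chr2:232085046-232085492 had the same 6 against 0. The region at chr5:26553138-26553554 near CDH9, a cadherin gene, was less particular, with 6 of 6 progenitor and 4 of 6 neuron libraries. On the neuron side, regions inside ATG4C (chr1:62834066-62834950), inside RAB38 (chr11:87870518-87871482) and nearest to HAO1 (chr20:7716149-7716866) each had a peak in 0 of 6 progenitor and 5 of 6 neuron libraries of the other days. The other 3 of the 6 neuron-only regions recurred less, in 0 of 6 progenitor and 2 to 4 of 6 neuron libraries.

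The day 90 split recurred at the other days. Of the progenitor-only regions, 60.0% ± 15.5 (SD, n = 6) had a peak in a progenitor library of another day and 16.6% ± 13.0 (SD, n = 6) in a neuron library (exact permutation test, two-sided p = 0.00433). Of the neuron-only regions, 4.81% ± 1.82 had a peak in a progenitor library and 46.1% ± 15.7 in a neuron library (exact permutation p = 0.00216, the smallest that 6 against 6 can give). Regions in all 4 day 90 libraries were found in 79.2% ± 10.02 and 87.0% ± 4.41 (exact permutation p = 0.0974). These libraries did not enter the definition of the regions, but they come from the same line.

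The 2 classes did not recur evenly over time. Day 40 neurons had a peak at 34.3% and 32.1% of the progenitor-only regions, while day 60 and day 120 neurons had one at 5.62% to 10.5%. Day 40 neuron lists were also the longest of the neuron lists, at 104 and 97.9 Mb. At the progenitor-only regions, the lowest progenitor value was 33.4% in day 120 replicate 2, whose list covered 36.9 Mb, and it lay between the 2 day 40 neuron values. At the neuron-only regions the populations did not overlap: progenitor libraries ran from 1.31% to 6.40% and neuron libraries from 24.0% to 67.0%. The 3 lowest neuron values there were 24.0% and 38.8% at day 40 and 37.7% in day 60 replicate 2.

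**Figure D2:**
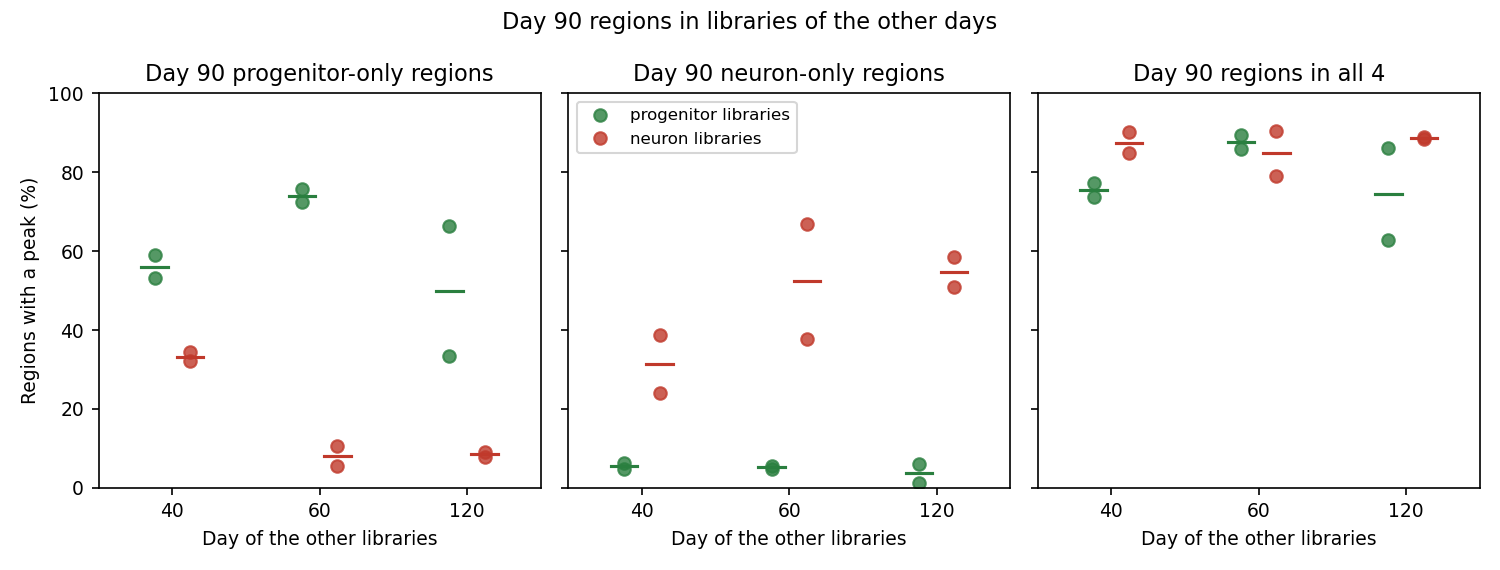
Percentage of day 90 progenitor-only, neuron-only and shared regions that had a peak in each library of days 40, 60 and 120. Points are libraries, lines are means of 2. Neuron-only regions show no overlap between populations, progenitor-only regions overlap through day 40 neurons and 1 day 120 progenitor library, and shared regions have a peak at 62.8% to 90.6% over the 12 libraries.

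Individual regions followed the same split. In 84.8% of progenitor-only and 88.8% of neuron-only regions, more libraries of the same population than of the other had a peak at other days. A complete separation, 6 of 6 against 0 of 6, was found at 1916 progenitor-only and 562 neuron-only regions, and the mirror image at 0 of either class. Regions without a peak in any of the other 12 libraries numbered 875 (3.10%) and 1230 (7.07%). They were weak, with median fold percentiles of 22.6 and 35.1 against 41.5 and 51.1 in their classes.

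To name genes, covered bases were summed over each gene and 20 kb on either side, scaled to the library's total and compared on the log2(bases + 500) scale with limma. The fit took in all 16 libraries as 8 groups, and 18755 genes were tested with Benjamini-Hochberg adjustment. At an adjusted p under 0.05, 206 loci were higher in day 90 progenitors (1.1%) and 254 were higher in day 90 neurons (1.35%), 460 in all (2.45%). The median log2 difference over all loci was -0.13 (progenitors minus neurons). Without scaling to the total it was 0.20, and the calls were 41 and 5, so the share on the progenitor side moved from 44.8% to 89.1%. Below, log2 differences are the scaled ones with their SE, and a value near -0.13 is that of a typical locus. Without scaling every log2 difference is higher by 0.33, so values between -0.33 and 0 then change sign.

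The calls rest on few libraries. Leaving out progenitor replicate 1 left 19 calls, progenitor replicate 2 left 19 and neuron replicate 2 left 29, while leaving out neuron replicate 1 left 249. A locus with no covered bases takes a higher scaled value in a shorter list, which touches the sparsest loci. Of the 13 called genes on the lists described below, GRIA2 was called in 4 of 4 fits with a library left out, JAG2 in 2, SOX2 and YAP1 in 1 (that without neuron replicate 1) and the other 9 in none.

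Among loci higher in progenitors, the largest difference was at ITGB6, an epithelial integrin subunit. Progenitors had 7.53 and 5.12 kb of peaks there and neurons 0 and 0.305 kb (log2 difference 3.07 ± 0.38, limma adjusted p = 0.000399). The locus held 4 progenitor-only and 0 neuron-only regions, and its call held with any 1 of the day 90 libraries left out. ANXA13, an annexin gene, behaved alike, with 5.75 and 5.43 kb against 0.346 and 0.836 kb (2.19 ± 0.34, adjusted p = 0.00155, called in 4 of 4 fits with a library left out). The other 10 loci named by size were C4orf54, TREM1, LOC124902713, USP26, DAPL1, GPER1, LOC124901498, PCK1, HAPSTR2 and STEAP3, with log2 differences from 1.78 to 2.21. PCK1, the gluconeogenic enzyme, had 4.05 and 4.72 kb in progenitors against 1.62 and 0 kb in neurons, and STEAP3, a metalloreductase, 7.04 and 7.34 against 1.78 and 0.882 kb. All 10 were called in only 1 of the 4 fits, that without neuron replicate 1. HAPSTR2 is a retrocopy of HAPSTR1, so reads could be split between the copies.

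Among loci higher in neurons, GRIA2, the AMPA receptor subunit that sets calcium permeability, stood out for its extent. Neurons had 13.5 and 10.015 kb of peaks and progenitors 3.599 and 4.42 kb (-1.77 ± 0.27, limma adjusted p = 0.00136). Its start lay under a peak of 3.05 to 3.30 kb in all 4 libraries, whereas the locus with its flanks held 19 and 12 peaks in neurons, 14 and 10 of them inside the gene, and 3 and 5 in progenitors, 2 and 4 of them inside. MYH13, a myosin heavy chain gene, had no covered bases in either progenitor and 2.89 and 3.20 kb in neurons. GADL1, a decarboxylase gene, had 1.56 and 1.28 kb in progenitors and 4.89 and 5.65 kb in neurons (-1.92 ± 0.25, adjusted p = 0.000538). These 3 calls held in 4 of 4 fits with a library left out.

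The other 9 neuron-side loci had log2 differences from -2.52 to -1.58. PHACTR3, a phosphatase and actin regulator of brain, had 6 neuron-only and 0 progenitor-only regions, with 12.4 and 7.67 kb in neurons against 4.73 and 1.03 kb. CDH9 had 2.97 and 5.29 kb in neurons against 1.05 and 1.06 kb, and MAP2K4, a kinase of the JNK cascade, 5.82 and 4.38 against 1.66 and 2.02 kb. JAG2, a Notch ligand, had 4.43 and 3.48 kb in neurons against 0.939 and 1.22 kb. CCR3, GNAT3, ZNF831, FOXQ1 and CEP126 completed the group. FOXQ1 and MAP2K4 were called in none of the 4 fits with a library left out, PHACTR3, JAG2 and CCR3 in 2 and the others in 1.

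**Figure D3:**
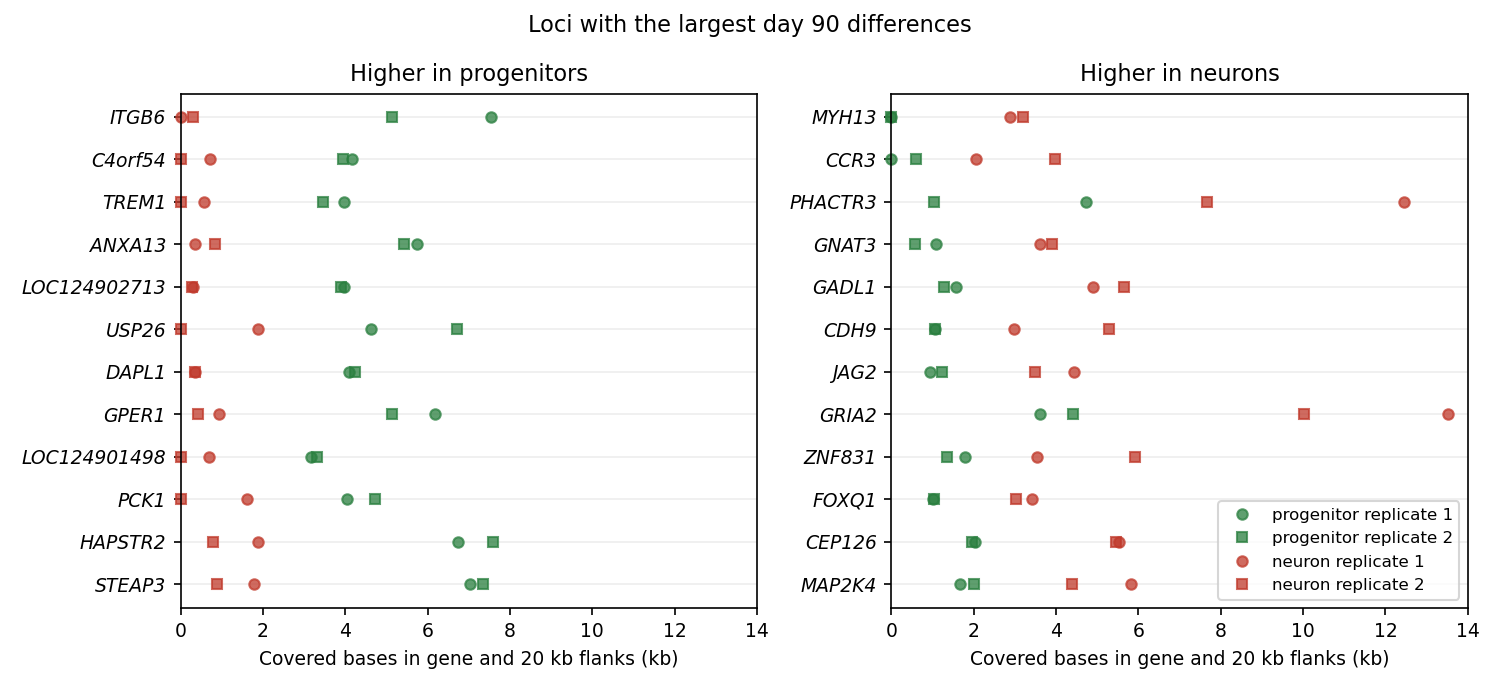
Covered bases (kb) in each day 90 library for the 12 loci with the largest differences in each direction, before scaling. Circles are replicate 1 and squares replicate 2. Green progenitor and red neuron points do not overlap at any of the 24 loci, which the naming rule required.

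In all, 11 calls held in all 4 fits with a library left out, and 6 of these were not named by size and were picked out after their values were seen. On the progenitor side they were INSC, TNS1 and EEFSEC. INSC encodes the spindle orientation adaptor inscuteable, which links division axis to cell fate. Its locus had 11.8 and 10.8 kb in progenitors and 2.82 and 1.85 kb in neurons (1.75 ± 0.26, limma adjusted p = 0.00136). TNS1, a focal adhesion gene, had 24.4 and 23.7 kb against 7.85 and 8.80 kb, and EEFSEC, the selenocysteine elongation factor, 19.98 and 16.4 against 5.72 and 4.78 kb. On the neuron side they were GRIK1, THEMIS and KRTAP10-12. GRIK1, a kainate receptor subunit, had 15.3 and 16.8 kb in neurons and 8.82 and 7.32 kb in progenitors (-1.29 ± 0.18, adjusted p = 0.000853). KRTAP10-12 lies in a cluster of keratin-associated protein genes whose windows overlap.

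The reporter genes were examined in every library. At SOX2 the progenitors had 15.7 and 18.0 kb of peaks and the neurons 8.94 and 3.81 kb (log2 difference 1.11 ± 0.26, limma adjusted p = 0.0235). The populations did not overlap, but neuron replicate 1 stood between neuron replicate 2 and the progenitors. A peak of 3.53 and 3.52 kb spanned the SOX2 start in progenitors and one of 2.43 kb in neuron replicate 1. In neuron replicate 2 no peak covered the start, and the 300-base promoter window was empty there. The locus held 10 and 9 peaks in progenitors, with median widths of 1.21 and 1.66 kb, and 9 and 7 in neurons, with median widths of 0.722 and 0.558 kb. Its 2 progenitor-only regions lay on either side of the peak at the start, and neuron replicate 2 also lacked several downstream peaks that the other 3 libraries had. The call was lost without progenitor replicate 1, progenitor replicate 2 or neuron replicate 2 (adjusted p from 0.128 to 0.531) and without scaling (0.114). At the other days SOX2 had a median of 13.1 kb in progenitors (7.10 to 15.9) and 4.82 kb in neurons (4.68 to 6.82), without overlap.

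SYN1, whose promoter drives the neuronal reporter from another chromosome, did not pass the test at its own locus. Reads from the inserted promoter copy could align to SYN1 too, which the peak lists cannot tell apart. Progenitors had 3.46 and 3.91 kb and neurons 2.64 and 3.74 kb (-0.14 ± 0.28, limma adjusted p = 0.837), and the sign turned without scaling (0.19). PPP1R12C, which holds the AAVS1 site, had 2.501 and 4.28 kb in progenitors and 4.34 and 2.82 kb in neurons (-0.41 ± 0.30, adjusted p = 0.526). Both loci overlapped between populations.

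Radial glia genes as a group had more open bases in progenitors. Of the 20 members, 18 had more covered bases in both progenitors than in both neurons, where 50% of all loci did, and 0 showed the reverse, where 12.3% of all loci did. Their median log2 difference was 0.18 against -0.13 for all genes. The test was passed by 2 members, SOX2 and FGFR3, where 2.45% of all loci passed it. FGFR3 had 8.07 and 7.82 kb in progenitors and 2.14 and 2.08 kb in neurons (1.36 ± 0.34, limma adjusted p = 0.0323). Its start lay under a peak in both progenitors and in neither neuron, though that of progenitor replicate 1 began only 0.005 kb before it. Both neurons had a peak inside the gene, beginning 0.592 and 0.653 kb after the start. SLC1A3, the glial glutamate transporter GLAST, had 13.9 and 15.1 against 7.97 and 5.40 kb and did not pass (0.75, adjusted p = 0.0673). HES1 also did not pass (0.67, adjusted p = 0.0914). FABP7 and HES5 were the exceptions in covered bases, with overlapping values such as 8.54 and 8.08 against 8.97 and 8.30 kb at FABP7.

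Outer radial glia, astroglial and gliogenic lists leaned the same way. All 10, 12 and 10 members had more covered bases in both progenitors, where 50% of all loci did. Their median log2 differences were 0.24, 0.35 and 0.34, against -0.13 for all genes. All 8 oligodendrocyte lineage genes and 9 of 10 interneuron and ventral genes also had more covered bases in both progenitors. FAM107A, an outer radial glia marker, had 11.8 and 9.05 kb against 4.604 and 3.95 kb (0.85 ± 0.23, limma adjusted p = 0.0437). BMPR1B, a BMP receptor that acts in astroglial differentiation, had 24.8 and 25.5 kb against 11.96 and 11.4 kb (0.74 ± 0.17, adjusted p = 0.0178), with 16 progenitor-only and 3 neuron-only regions. Of the astroglial genes 0 passed, where 2.45% of all loci did. SPARCL1 had 4.18 and 4.05 kb against 1.84 and 0.425 kb (1.32, adjusted p = 0.175) and GFAP 6.06 and 5.61 against 3.63 and 2.43 kb (0.53, adjusted p = 0.387). The gliogenic loci held 72 progenitor-only and 21 neuron-only regions, 77.4% on the progenitor side against 61.8% over all regions, and NFIA and NFIB held 13 progenitor-only regions each.

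Among Notch genes, 3 of 17 were higher in progenitors and 1 in neurons, where 1.1% and 1.35% of all loci were. The ligands went opposite ways. JAG1 had 11.9 and 10.04 kb in progenitors against 5.06 and 4.67 kb (0.76 ± 0.19, limma adjusted p = 0.0344), while JAG2 was higher in neurons (-1.83 ± 0.33, adjusted p = 0.00493). The receptor NOTCH2 had 8.76 and 7.15 against 3.42 and 2.73 kb (0.91 ± 0.22, adjusted p = 0.0269) and the coactivator MAML2 32.8 and 29.7 against 14.5 and 15.3 kb (0.71 ± 0.17, adjusted p = 0.0227). The receptor NOTCH1 and the ligand DLL3 had values of 0.20 and -0.23 and did not pass. In the Hippo-YAP list 1 of 14 passed, where 2.45% of all loci did. It was YAP1 itself, the growth-promoting coactivator, with 12.1 and 11.5 kb in progenitors against 5.30 and 2.58 kb (1.21 ± 0.28, adjusted p = 0.0229). Its kinases LATS1 and LATS2 had -0.41 and 0.29.

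FGF signalling genes had the most one-sided region counts of the signalling lists, with 25 progenitor-only and 5 neuron-only regions. That was 83.3% on the progenitor side, against 61.8% over all regions. All 14 members had more covered bases in both progenitors, where 50% of all loci did. FGFR3 was the single one to pass the test, which 2.45% of all loci passed. FGFR1, FGF2 and SPRY4 had 0.52, 0.54 and 0.54 and did not. Cell cycle genes, whose promoters are open in most cells, had a median of -0.06 (0.28 without scaling). Of the 12, 0 were called, where 2.45% of all loci were, and MKI67 had 2.77 and 2.45 kb against 2.77 and 1.82 kb.

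**Figure D4:**
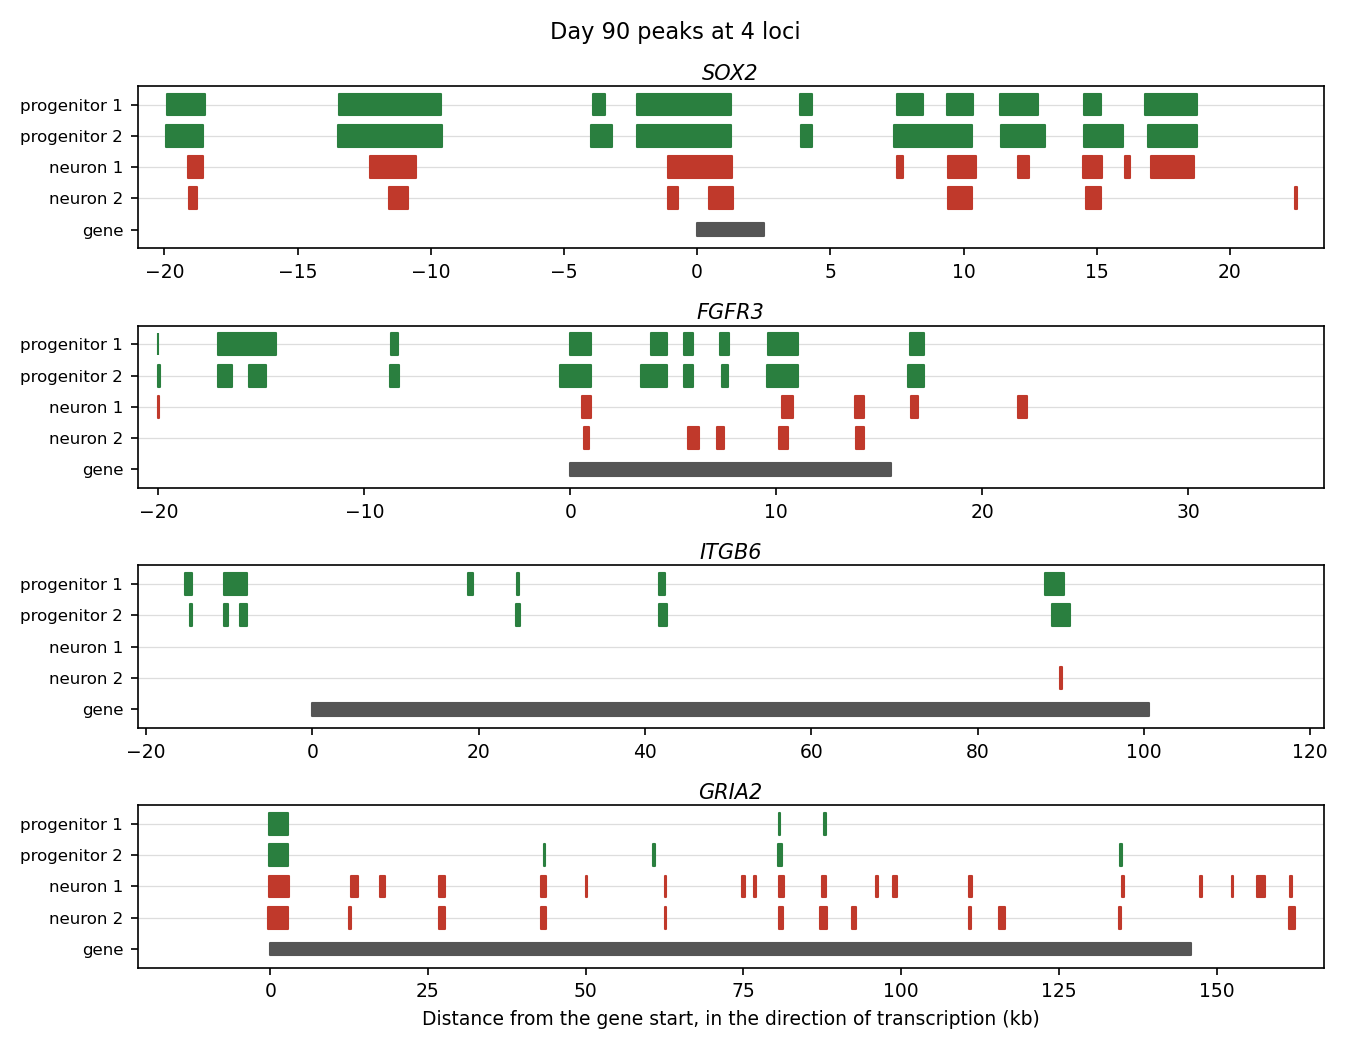
Peaks of the 4 day 90 libraries (green progenitors, red neurons) around SOX2, FGFR3, ITGB6 and GRIA2, with the gene body in grey, by distance from the gene start in kb. SOX2 has 10 and 9 peaks in progenitors and 9 and 7 mostly narrower ones in neurons, ITGB6 has 0 and 1 peaks in neurons, and GRIA2 shares its start peak while neurons have 14 and 10 peaks inside the gene against 2 and 4.

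Few genes of the neuronal lists passed the test, which 2.45% of all loci passed. Pan-neuronal genes had a median of -0.28, the lowest of the 24 lists, which became 0.05 without scaling. Of 16 members 15 were below 0 on the scaled values and 0 passed. Above 0 were 1 of the 16, 2 of 14 housekeeping genes and 6835 of all 18755 loci. In covered bases 4 of the 16 were higher in both neurons and 5 in both progenitors, where 12.3% and 50% of all loci were. NEFM, a neurofilament gene, had 3.74 and 4.41 kb in neurons against 2.35 and 2.94 kb (-0.87, limma adjusted p = 0.0969), and MYT1L 30.1 and 32.4 against 28.6 and 28.6 kb. The exception was ELAVL4, an RNA-binding protein gene, with 13.8 and 12.7 kb in progenitors against 7.23 and 7.30 kb (0.49, adjusted p = 0.155). Housekeeping genes had a median of -0.22 (0.11 without scaling), near that of the pan-neuronal list.

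Synaptic vesicle and ion channel lists had medians of -0.20 and -0.07 (0.13 and 0.26 without scaling) and 0 calls in 14 and 12 members. Of all loci 2.45% were called, beside which this and the next 2 lists are read. SYP, a vesicle membrane protein, had 4.51 and 5.39 kb in neurons against 3.05 and 3.79 kb (-0.81, limma adjusted p = 0.128). Of 12 glutamatergic genes 1 passed, GRIA2. GRIN1, the obligate NMDA receptor subunit, had 5.39 and 5.61 against 4.10 and 4.88 kb (-0.60, adjusted p = 0.201), and GRIN2B went the other way, 23.3 and 26.4 kb in progenitors against 12.7 and 19.3 kb (0.32, adjusted p = 0.405). Axon guidance genes had 0 of 18 called. Their long loci held 148 progenitor-only and 92 neuron-only regions, 61.7% on the progenitor side against 61.8% over all regions.

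Layer genes did not follow the sort as a group. CUX1, an upper-layer factor with broader roles, had 13 progenitor-only and 0 neuron-only regions and 43.2 and 43.0 kb in progenitors against 24.7 and 24.2 kb (0.48, adjusted p = 0.107). Among deep-layer genes, FOXP2 was higher in progenitors, 30.3 and 23.1 against 12.6 and 11.8 kb (0.76 ± 0.17, adjusted p = 0.0200), and SOX5 held 12 progenitor-only and 16 neuron-only regions. Intermediate progenitor and proneural genes had 0 of 12 called, where 2.45% of all loci were. EOMES had 9.19 and 9.31 against 9.21 and 7.16 kb, and NEUROG2 8.86 and 10.009 kb in neurons against 7.14 and 7.83 kb (-0.65, adjusted p = 0.127).

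**Figure D5:**
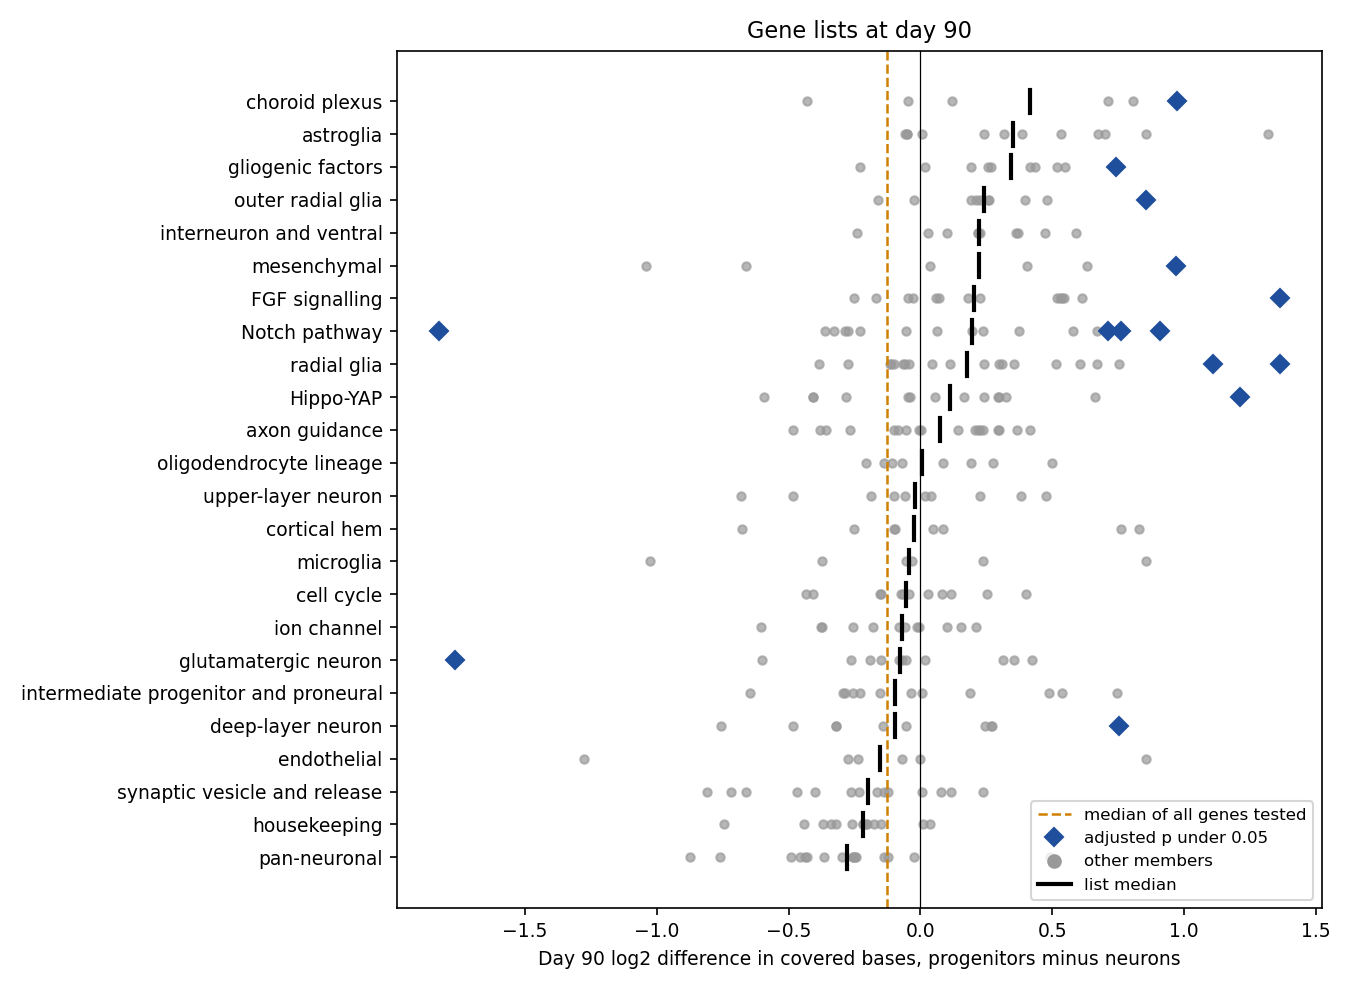
Day 90 log2 differences (progenitors minus neurons) of the members of the 24 gene lists, ordered by list median. Blue diamonds passed at an adjusted p under 0.05, grey points did not, black bars are list medians and the dashed line is the median of all 18755 genes, -0.13.

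Sums over the markers of other cell types were also higher in progenitors, whose lists covered on average 101 Mb against 80.2 Mb in neurons. Summed over 6 astroglial markers, peaks covered 29.5 and 27.3 kb in progenitors and 18.8 and 13.1 kb in neurons. For 6 choroid plexus markers the sums were 20.5 and 21.1 against 13.9 and 11.1 kb, and for 10 interneuron and ventral markers 80.5 and 73.1 against 53.8 and 45.0 kb. The 6 microglial markers summed to 10.7 and 10.2 against 8.16 and 8.95 kb. Sums of the 6 endothelial markers were 17.4 and 15.7 against 13.2 and 14.95 kb. The 10 radial glia markers summed to 155 and 156 against 110 and 108 kb, and the 10 neuron markers to 153 and 153 against 136 and 141 kb. Of all markers of 10 cell types, CLIC6 in neuron replicate 2 was the one case without covered bases. TTR, the choroid plexus transthyretin gene, was higher in progenitors (4.62 and 4.67 against 1.57 and 1.59 kb, 0.97 ± 0.26, limma adjusted p = 0.0423), as was PDGFRB, a mesenchymal and pericyte receptor (8.10 and 7.43 against 3.05 and 2.65 kb, 0.97 ± 0.25, adjusted p = 0.0351). On the mesenchymal list, 4 of the 6 genes had more covered bases in both progenitors and 2 in both neurons. Over all loci these shares were 50% and 12.3%. The part of these other cell types in the progenitor-side differences was not tested.

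The loci with the most regions of either class were long genes, and the following were picked out after their values were seen. RBFOX1, a neuronal splicing factor, held 39 neuron-only and 19 progenitor-only regions and was higher in neurons, with 74.5 and 77.9 kb against 61.1 and 47.6 kb (-0.83 ± 0.20, limma adjusted p = 0.0244), a call lost with any 1 day 90 library left out (adjusted p from 0.0754 to 0.292). TENM2 and NRXN3, genes of synaptic adhesion proteins, held 37 and 35 progenitor-only against 16 and 15 neuron-only regions, and did not pass (0.30 and 0.27, adjusted p = 0.305 and 0.396).

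Finally, the day 90 difference of each locus was set against the mean difference of days 40, 60 and 120 in the same fit. Of 18755 loci, 0 passed (0%), 1076 had an unadjusted p under 0.05, and the smallest limma adjusted p was 0.2995. SOX2 differed by 1.83 at day 40, 0.88 at day 60 and 0.67 at day 120 against 1.11 at day 90. GRIA2 differed by -1.12, -1.11 and -0.71 against -1.77, and ITGB6 by 0.71, 1.30 and 1.48 against 3.07. Some loci named by size had the opposite sign at day 40. MYH13 differed by 1.26 at day 40 against -3.15 at day 90, and STEAP3 by -0.65 against 1.78. The day 40 sign was also reversed at CEP126, GPER1, LOC124902713 and LOC124901498. At days 60 and 120 every locus named by size had the sign of day 90. A difference particular to day 90 was nonetheless not detected at any locus in this fit (4 loci passed with the replicate block and 1 with a pseudocount of 2000), which does not show that the days are alike.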

How the data were processed

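The deposited files are 1 list of broad peaks for each of 16 ATAC-seq libraries (30 minutes of Tn5, per the labels' protocol). Per the submitters' processing notes, the authors used Trim Galore 0.5.0, BWA 0.7.17, Picard, SAMtools 1.9, MACS2 2.1.2 and hg38. How duplicates and the Tn5 offset were handled is not given in the sources used here. Each deposited list holds a score in column 5, a ratio (fold enrichment) in column 7, and −log10 p-values and −log10 q-values in columns 8 and 9. These values are the authors' own, belong to separately called lists and served only to rank or filter peaks within a list. No read counts are given, so depth is unknown and a longer or cleaner list can hold more peaks.

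Groups came from the sample titles. Peaks of the 4 day 90 lists on chromosomes 1 to 22 and X were joined into regions on an overlap of 1 base or more. Locus coverage used RefSeq gene bounds (GRCh38.p14), genes reaching 500 covered bases in 2 or more libraries, and limma 3.58.1 in R 4.3.3 with a variance trend. Neighbouring windows overlap, so neighbouring genes share values. Promoter windows and their sequences are from RefSeq (GRCh38.p14). Each was searched on both strands for 13 exact motifs. These were the SOX motif ACAATG with its variant ACAAAG, the proneural E-box CAGATG with its palindromic form CAGCTG, the TEAD motif GGAATG, the NFI motif TTGGCA, the RBPJ motif TGGGAA, the homeobox motif TAATTA, the AP-1 motif TGACTCA, the CRE motif TGACGTCA, the RFX motif GTTGCC, the POU motif ATGCAAAT and the TATA motif TATAAA, of which none contains another.

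The members, the 24 gene lists and the tests were chosen with earlier results of these data known. Named loci were the 12 per direction with the largest difference among called genes with at least 3 kb in the higher population, unscaled values that do not overlap and windows apart from one another. Named regions were the 6 per class with the highest ranks, and list genes were named with their values. Scripts were tested on simulated data.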

Additional observations from a re-analysis of the deposited data

How the results depend on the processing

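Counts of population-only regions and promoter windows, Jaccard indices and the recurrence at other days kept their direction under every alternative run, with these shifts. Keeping peaks with −log10 q of at least 5 left 9412 neuron-only regions, and covered length was then 75.3 Mb in progenitors and 52.8 Mb in neurons, against 94.4 and 71.6 Mb at 2. Leaving out 1 library gave 32292 to 43827 progenitor-only and 20340 to 38572 neuron-only regions, and 608 to 1283 and 184 to 261 promoter windows, since fewer libraries must then concur. Of the regions of both classes, 61.8% were progenitor-only in the main run. That share was 50.8% without neuron replicate 1 and 51.5% without neuron replicate 2, so the progenitor excess was then small. Shifts over 1.5 times came without progenitor replicate 2 (43827 progenitor-only regions and 788 windows), neuron replicate 1 (38572 neuron-only regions, 1283 and 230 windows), neuron replicate 2 (30432 neuron-only regions and 261 windows) and progenitor replicate 1 (204 neuron-only windows). Loci higher in progenitors and in neurons numbered 41 and 5 without scaling, 633 and 860 with lists of equal length, 71 and 151 with a pseudocount of 2000, and 348 and 469 with the replicate block. A pseudocount of 100 left 147 loci higher in neurons. Fitting the 4 day 90 libraries alone left 0 and 0, where 5334 loci had an unadjusted p under 0.05 and the limma adjusted p began at 0.0501. Leaving out 1 library gave 8 to 153 and 10 to 96, the highest without neuron replicate 1. Apart from the fits named here, the cause of these shifts was not tested. Of 36 called genes followed singly, 0 changed direction in any fit, 3 stayed called without scaling and 29 with equal lists. Loci named by size had to have unscaled values apart in the same direction, which fixed their sign without scaling. Direction changed without scaling or with equal lists at 2 of the 206 progenitor-side and 4 of the 254 neuron-side calls. The day 90 difference against the other days had 0 calls in the fits run for it except with the replicate block, which gave 2 and 2, and with a pseudocount of 2000, which gave 1 locus on the neuron side (limma adjusted p = 0.0474). Replicate numbers were not treated as pairing: the deviations of same-numbered libraries correlated at -0.12, 0.21, 0.06 and 0.16 on days 40, 60, 90 and 120.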

Other observations

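Progenitor-only promoter windows outside the lists included FGF1, a ligand of the FGF receptors, and neuron-only windows included ADORA1, CNR1 and GRM4, which encode receptors for adenosine, cannabinoids and glutamate. These were picked out after their values were seen and are given without a test.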
